A study of Homo sapiens with 3 samples.

Results

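Among the H3K27ac regions of 786-O cells, 670 of 52667 shared at least 1 bp with 3 or more TEAD regions, 1.27% of all. 786-O is an established human clear cell renal carcinoma line. The 670 regions and the 2344 TEAD regions that touch them were chosen from 2 deposited peak lists on chromosomes 1 to 22 and X, and a region here is 1 interval of such a list. The overlap itself chose the members, so that count is a description. The series holds 3 libraries of cultures for which the labels name no treatment: chromatin precipitated with an antibody to H3K27ac, chromatin precipitated with an antibody to TEAD, and input chromatin. The TEAD peaks are identified as TEF1 and TEF3, older names of TEAD family proteins. Each antibody has 1 library, so no value below has a replicate, no test between conditions was possible and no p-value is given. Neither list names genes and no annotation of their build was used here, so regions are given by hg19 position and the line was not checked against marker genes.

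H3K27ac, acetylation of lysine 27 on histone H3, marks nucleosomes at active promoters and enhancers. TEAD proteins bind short DNA elements and recruit the co-activators YAP and TAZ, whose entry into the nucleus is limited by the Hippo kinases. A factor bound to DNA often lies in a stretch depleted of nucleosomes, with acetylated nucleosomes on either side. Enhancers often carry several sites for the same factor, and 1 called interval of H3K27ac can cover more than 1 regulatory element.

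The regions with 3 or more TEAD were wide and strongly acetylated. Their width ran from 1236 to 45558 bp with a median of 6792.5 bp (quartiles 4907 and 9263 bp). Their fold enrichment at the H3K27ac summit over the caller's local background had a median of 19.9 (quartiles 14.9 and 25.6), and the lowest was 5.03. Both values were far above those of regions without TEAD, whose median width was 659 bp and median fold 5.31. Of the 670, 412 lay in the highest 10% of all H3K27ac folds, a share of 61.5% (exact 95% binomial interval 57.7 to 65.2%).

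Exactly 3 TEAD regions were held by 465 of the 670, 4 by 132, 5 by 44 and 6 by 18. The remaining 11 held 7 or more, up to 16 in 1 region. Regions just inside the threshold, with exactly 3, had a median width of 5991 bp and a median H3K27ac fold of 18.7. Those just outside it, the 2424 with exactly 2, had medians of 3488.5 bp and 14.9. Among the 670 the TEAD number went with log2 width (Spearman rho 0.50, n = 670) more than with log2 H3K27ac fold (rho 0.21), all measured in the same pair of libraries.

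The share of members rose with width. Of the 41022 H3K27ac regions narrower than 2000 bp, 6 were members. The share was 0.936% from 2000 to 4000 bp, 9.09% from 4000 to 6000 bp and 31.7% from 6000 to 8000 bp. It was 78.2% (79 of 101; 68.9 to 85.8%) at 12000 bp or more. For that reason the other regions were set beside the members in bins of 0.25 in log2 width, weighted to the members' widths.

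**Figure D1:**
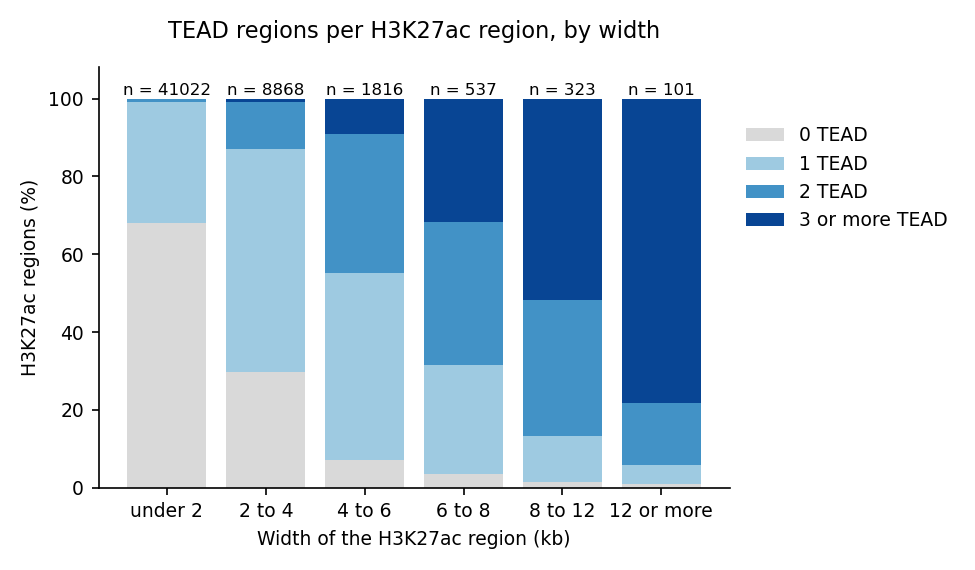
Share of H3K27ac regions (vertical axis, percent) with 0, 1, 2 and 3 or more TEAD regions, in 6 bands of region width (horizontal axis, kb), with the number of regions above each bar. Members make up 6 of 41022 regions in the narrowest band and 79 of 101 in the widest.

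A TEAD interval can touch an H3K27ac region with its summit, the position of highest enrichment, outside it. This was so for 116 of the 2347 pairs of a member and a TEAD region. All TEAD summits lay inside in 560 members, and at least 3 did in 586. The other 84 reached the threshold through a TEAD interval at an edge. Of the TEAD regions, 3 touched 2 members each, and 71 also touched another H3K27ac region. With only TEAD regions of at least 5-fold, 383 of the 670 remained.

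The region with the most TEAD regions lay at chr14:62012651-62058208. It was also the widest of all members, at 45558 bp, with an H3K27ac fold of 33.4 (counting interval 28.4 to 39.1; 153 reads at the summit). Its 16 TEAD summits spanned 42407 bp, all inside the region, with spacings from 1030 to 5943 bp and a median of 2260 bp. The strongest, of 40.5-fold (35.2 to 46.3), lay 570 bp below the H3K27ac summit, and one of 7.11-fold lay 460 bp above it. Others of 33.9- and 35.04-fold lay 2314 and 18926 bp above it. The weakest was 4.43-fold (2.95 to 6.41), so strong and weak TEAD sites were interspersed along the interval. The counting intervals of the strongest 3 overlapped, and their order is not resolved.

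The second, at chr1:43393425-43430603, held 11 TEAD regions over 35576 bp. None was as strong: the highest was 19.2-fold (15.6 to 23.3), 16716 bp below the H3K27ac summit, and the lowest 3.90-fold. The nearest TEAD summit to the H3K27ac summit, 973 bp away, was 4.47-fold. Here the acetylation peak and the strongest TEAD site were thus far apart. The same held at chr7:27148143-27172289, where 9 TEAD regions spanned 20166 bp. Its strongest, of 33.3-fold (28.9 to 38.3), lay 12778 bp below the H3K27ac summit, and the other 8 were between 3.26- and 7.74-fold.

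Among the 4 regions with 8 TEAD regions, that at chr17:48120747-48144838 had H3K27ac at 27.3-fold and its strongest TEAD, 18.9-fold, 6193 bp from the summit. The one at chr10:95218771-95235858 had its strongest TEAD summit (34.2-fold) just outside the acetylated interval, 9311 bp from the H3K27ac summit. At chr2:206555809-206574451 a pair of 26.0- and 28.0-fold stood at the lower-coordinate end and the other 6 ran from 4.05- to 15.5-fold. At chr11:118779295-118797179 the H3K27ac summit lay near the lower-coordinate end. A TEAD region of 40.2-fold (34.4 to 46.7) stood 646 bp above it and one of 23.7-fold 12287 bp above it. These regions share a high TEAD number but differ in where the strongest site stands.

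Each of the last 3 of these 10 regions held 7 TEAD regions. At chr10:73723283-73737870 all 7 lay on 1 side of the H3K27ac summit, from 300 to 11011 bp above it, and none exceeded 14.2-fold. At chr11:65183690-65195929 the strongest, of 28.0-fold, was also the nearest, 251 bp from the summit, and the other 6 were at most 9.40-fold. At chr1:8145588-8159480 the strongest was again the nearest, 28.9-fold (24.9 to 33.3) at 401 bp. In the last 2 regions the strongest TEAD site thus adjoined the acetylation summit.

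**Figure D2:**
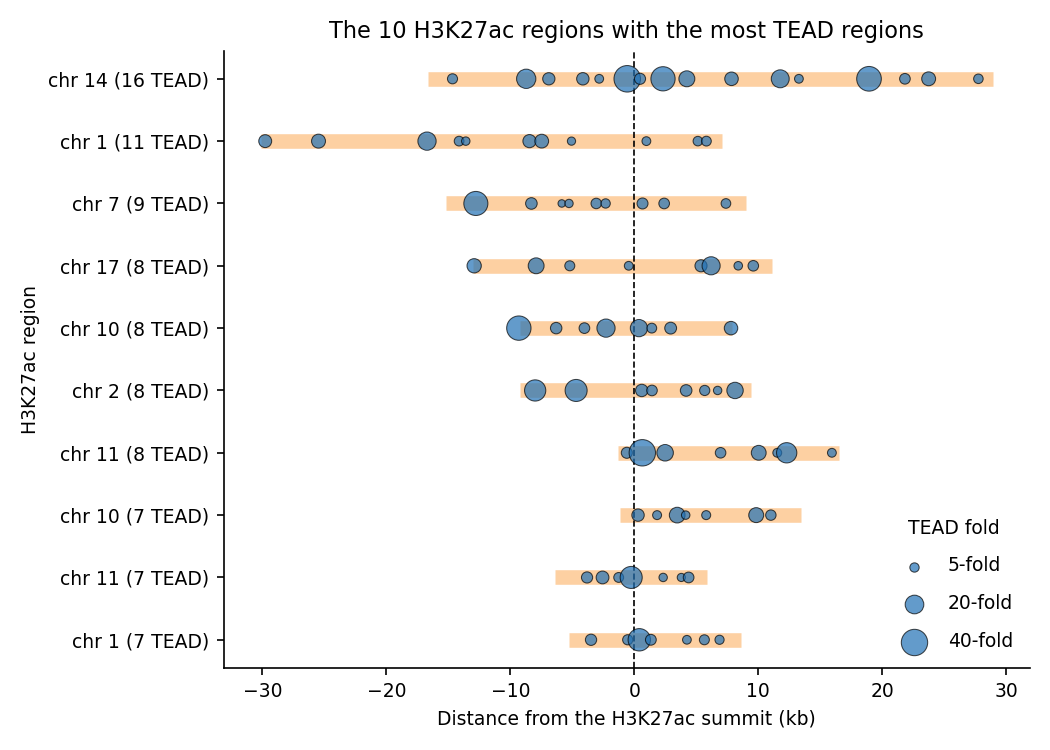
The 10 H3K27ac regions with the most TEAD regions, drawn as bars by distance from their H3K27ac summit (horizontal axis, kb; dashed line at 0) in order of TEAD number (vertical axis). Circles are TEAD summits with areas in proportion to fold; the strongest lies next to the dashed line in the chromosome 14 region with 16 TEAD and at an end of the chromosome 7 region.

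Spacing had a wide range. The 1677 distances between adjacent TEAD summits in a member had a median of 1534 bp (95% binomial interval of the median 1469 to 1589 bp; quartiles 1029 and 2498 bp), with a range of 347 to 10913 bp. Only 16 of them were under 500 bp and 371 lay between 500 and 1000 bp (22.1%). Between 1000 and 2000 bp lay 41.7% (39.3 to 44.1%), and at 4000 bp or more 8.17% (6.90 to 9.58%). The intervals of a list do not overlap, and no adjacent pair in a member was closer than 131 bp from edge to edge. Each interval carries 1 summit, so closer sites within an interval are not seen here.

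Spacing was longer in regions with more TEAD regions, which were also wider. Its median was 1416 bp with exactly 3, 1598 bp with 4, 1770.5 bp with 5 and 1757 bp with 6 or more. Regions with exactly 2 had a median of 1326 bp. In the same width bins the order was the other way, as more sites in a given width must be closer: the mean over regions of their median spacing was 1750 ± 788 bp (SD, 639 members) and 2675 ± 1725 bp (SD, 2286 regions with 2). From the first to the last TEAD summit, members spanned a median of 3988.5 bp, or 61.6% of the region's width.

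**Figure D3:**
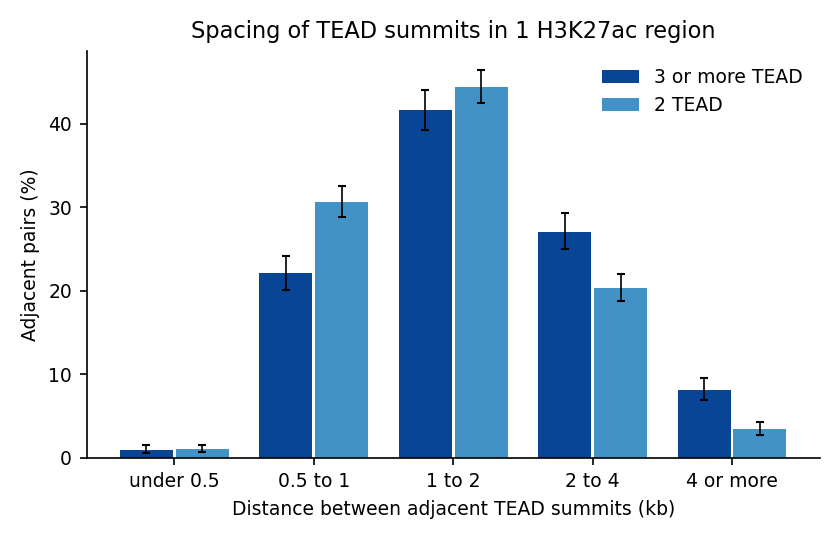
Share of adjacent TEAD summit pairs (vertical axis, percent) in 5 bands of distance of unequal length (horizontal axis, kb) for H3K27ac regions with 3 or more TEAD (1677 pairs) and with 2 (2424 pairs). Bars at 4 kb or more reach 8.17% and 3.47%; error bars are exact 95% binomial intervals.

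Nearly equal spacings were found in a minority of regions with exactly 3 TEAD. How often arbitrary placement of the middle summit would give them was not computed, so no departure from it is claimed in either direction. In regions with exactly 3 TEAD, the longer of the 2 spacings was a median of 1.64 times the shorter (quartiles 1.301 and 2.45). It was at least 2 times as long in 172 of 465 (37.0%; 32.6 to 41.6%) and within 1.2 times in 81 (17.4%; 14.1 to 21.2%). Among regions with 4 or more, the most even was chr19:2085570-2092327, with spacings between 1829 and 1986 bp. Its 4 TEAD regions were alike, from 5.25- to 8.88-fold, around the median of 7.14 of all TEAD regions. The first had its summit outside the acetylated interval. In the next, chr19:13903786-13909942, spacings ran from 1380 to 1557 bp and folds from 4.61 to 12.7. Even spacing did not come with even strength in the third: chr9:91143513-91152565 had spacings of 2326 to 2710 bp, a TEAD region of 49.3-fold and 3 others of at most 6.14-fold. At chr22:27501419-27513514 the spacings were 2194 to 2605 bp and folds 4.09 to 21.2. At chr5:169996047-170000447 they were 769 to 943 bp and 3.07 to 23.1.

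The 5 most compact members held TEAD sites of at most 11.6-fold, and in 4 of them of at most 5.79-fold. Their choice by shortest span bears on this, as intervals do not overlap and a short span holds only narrow ones. The TEAD intervals of these 5 were 269 to 475 bp wide. How far the choice sets the low folds was not tested. The shortest span, 1143 bp, was at chr8:145597607-145598842, the narrowest member, with TEAD folds of 5.79, 4.06 and 5.10 in order along the chromosome. At chr18:57685368-57688614 the span was 1179 bp and the folds were 11.6, 5.58 and 4.16. At chr4:83349881-83352735 the span was 1189 bp under a strong H3K27ac summit of 27.5-fold (22.5 to 33.4), with TEAD folds of 5.21, 3.98 and 3.65. The other 2, chr3:167810926-167813811 and chr10:6387946-6391072, spanned 1208 and 1233 bp, with no TEAD region above 5.15- and 5.02-fold. In all 5, a TEAD summit lay at most 236 bp from the H3K27ac summit, and TEAD reads at the summit were between 11 and 37, so the folds carry wide counting intervals.

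Strength within a region was unequal. The strongest site showed no detectable preference for a place along the chromosome or for nearness to the acetylation summit. TEAD summits within 150 bp of the acetylation summit were weaker, as given below. In the 465 regions with exactly 3 TEAD, the median fold was 14.2 for the strongest (quartiles 8.94 and 25.1), 7.11 for the second (5.57 and 10.4) and 4.91 for the weakest (4.06 and 6.004). The ranking fixes that these fall; their size is the description. Over all 670 the strongest was a median of 1.66 times the second and 3.03 times the weakest. It was at least 2 times the second in 252 (37.6%; 33.9 to 41.4%) and at least 5 times in 46 (6.87%). All TEAD folds lay within 1.5 times of each other in 73 members (10.9%). The share at least 2 times the second was 39.8% (37.8 to 41.7%) in regions with exactly 2.

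TEAD regions of members were among the strongest of the list slightly more often than TEAD regions in general. A TEAD fold of 19.2 or more marks the highest 10% of all TEAD regions. Of the 2344 TEAD regions of members, 295 reached it, a share of 12.6% (11.3 to 13.996%), against 10% of all TEAD regions. In 412 members no TEAD region did, in 226 exactly 1 did, in 27 there were 2 and in 5 there were 3 or more. These counts depend on the cut and on the TEAD number, and were not set beside other regions. The median fold of the members' TEAD regions was 7.14, the same to 3 digits as the 7.14 of all TEAD regions. They were wider, at a median of 533 bp against 463 bp. Across the 1677 adjacent pairs, the log2 folds of neighbours were nearly unrelated (Pearson r 0.0087, Spearman rho 0.026; pairs share library and region).

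In regions with exactly 3, the strongest TEAD stood first along the chromosome in 168 (36.1%; 31.8 to 40.7%), in the middle in 151 (32.5%; 28.2 to 36.9%) and last in 146 (31.4%; 27.2 to 35.8%). All 3 intervals include an equal share of places. Median folds by place were 7.57, 6.79 and 7.09. With 4 TEAD, the strongest stood at an outer place in 63 of 132 (47.7%; 39.0 to 56.6%), and with 5 in 19 of 44 (43.2%; 28.3 to 59.0%). No preference for the middle or the ends was detectable at these numbers.

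**Figure D4:**
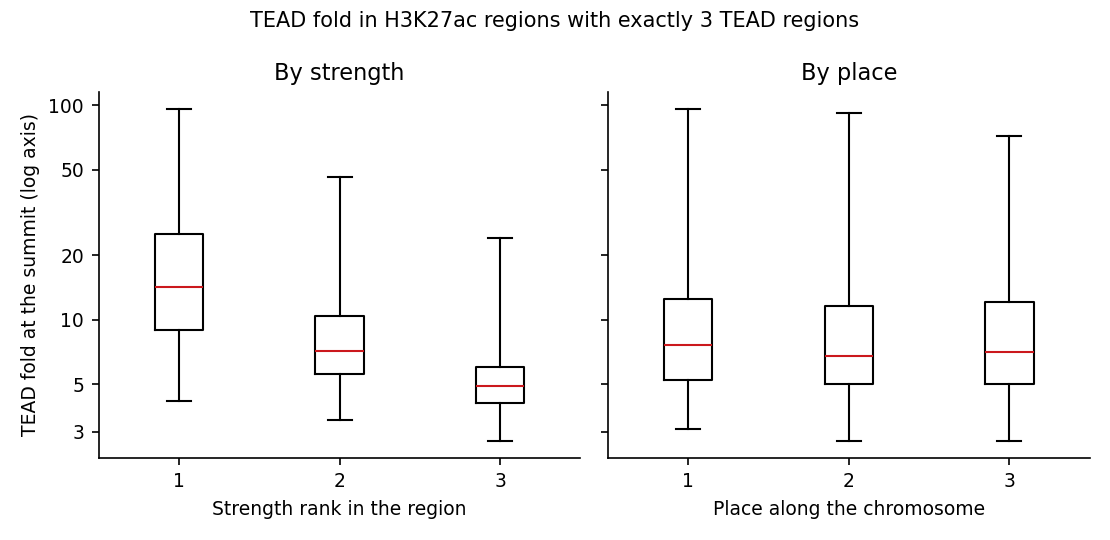
TEAD fold (vertical axis, log scale) in the 465 H3K27ac regions with exactly 3 TEAD regions, by strength rank (left) and by place along the chromosome (right). Boxes are quartiles with the median as a red line and whiskers reach the lowest and highest value; medians by rank are 14.2, 7.11 and 4.91, and by place 7.57, 6.79 and 7.09.

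The strongest TEAD was nearest to the H3K27ac summit in 207 of 670 members (30.9%; 27.4 to 34.5%), where equal places would average 30.02%. It was the farthest in 200 (29.9%; 26.4 to 33.5%). In regions with exactly 2 it was the nearer in 51.2% (49.2 to 53.2%). With exactly 3, the nearest TEAD had a median fold of 7.36 at a median distance of 413 bp, the next 7.09 at 1170 bp and the farthest 7.04 at 2749 bp. Their median reads at the summit were 30, 28 and 27 over recovered backgrounds of 3.02, 2.81 and 2.81 reads. Over the 2347 pairs, log2 TEAD fold and distance to the H3K27ac summit gave a Pearson r of 0.0012 and a Spearman rho of 0.0030, with library and region shared between points.

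The same was seen where the strongest site stood apart by counting error in its reads. In 198 of the 465 regions the strongest lay above the second beyond both counting intervals, which leave out error in the background. Among these it was in the middle in 31.8% (25.4 to 38.8%), nearest the H3K27ac summit in 35.9% (29.2 to 43.0%) and farthest in 31.3% (24.9 to 38.3%). The few TEAD summits on top of the acetylation summit were weaker. The 54 within 150 bp had a median fold of 5.79 (quartiles 4.58 and 7.53), against 7.96 (5.10 and 15.9) for the 505 between 450 and 1000 bp. Reads at the summit were 21.5 and 32 in the median, with backgrounds of 2.81 and 2.91.

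The 5 members with the strongest single TEAD sites differed in where that site stood and in how strong the others were. At chr19:6578213-6583231 a TEAD region of 96.4-fold (86.6 to 107) stood first, 513 bp from the H3K27ac summit, beside others of 6.66- and 5.596-fold. At chr19:2539148-2550930 all 3 were strong, at 94.3-, 22.97- and 27.7-fold, and the strongest was 320 bp from the summit. At chr3:134044235-134051588 the strongest, 91.5-fold (81.7 to 102), was in the middle, with 3.65- and 5.95-fold on either side. The fourth, chr11:67776627-67783770, had 78.4-fold 2751 bp from the summit and 3.02-fold at 207 bp. At chr10:49195530-49203264 a pair of 74.6- and 76.2-fold flanked the H3K27ac summit at 447 and 606 bp, and their intervals overlapped (66.6 to 83.3 and 68.6 to 84.5).

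The H3K27ac summit lay between the outer TEAD summits in 532 of the 670 members (79.4%; 76.1 to 82.4%), while that stretch made up 61.7% of a member's width on average. With exactly 2 TEAD the summit was between them in 65.7% (63.8 to 67.6%), for 44.2% of the width. With exactly 3, it lay before the first TEAD summit in 12.7% and after the third in 10.1%, for 21.5% and 20.7% of the length. It lay between the first and the second in 36.1% and between the second and the third in 41.1% (28.5% and 29.3% of the length). Acetylation thus peaked among the TEAD sites more often than the length alone gives, and outside them less often.

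Within that stretch the summit was as often in the shorter spacing as in the longer. Of the 359 regions with exactly 3 TEAD and the summit between, it lay in the longer spacing in 181 (50.4%; 45.1 to 55.7%), which made up 64.2% of that length. H3K27ac summits also lie toward the middle of their region in general. The median distance of a member's summit from the centre was 35.4% of the way to the edge (95% interval 33.2 to 38.2%). In the same width bins the mean was 37.8% ± 23.4 (SD, 639 members) and 35.7% ± 21.9 (SD) for regions with 2 TEAD. The corresponding means were 37.6% and 33.3% against regions with 1 TEAD, and 35.8% and 32.6% against regions with none. The members' mean was thus farther from the centre by 2.07, 4.28 and 3.24 points.

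The H3K27ac summit was seldom within 150 bp of a TEAD summit, for the length in that band. Its distance to the nearest TEAD summit had a median of 413.5 bp (95% interval 397 to 434 bp; quartiles 281 and 571 bp). It was under 150 bp in 54 members (8.06%; 6.11 to 10.4%), for 15.1% of the members' length. From 300 to 450 bp lay 27.3% (24.0 to 30.9%) for 13.6% of the length, and from 450 to 600 bp 22.8% (19.7 to 26.2%) for 11.1%. At 1000 bp or more lay 6.42% for 25.5%. By interval rather than summit, the H3K27ac summit lay inside a TEAD region in 206 of 670 members (30.7%; 27.3 to 34.4%), while TEAD regions covered 29.2% of their width. Regions with exactly 2 TEAD had 7.80% (6.76 to 8.94%) under 150 bp and 32.8% (30.9 to 34.7%) from 300 to 450 bp, for 16.9% and 15.0% of their length. In both classes the band from 300 to 450 bp thus held the most summits. From 450 to 600 bp the shares were 22.8% in members and 18.5% (17.0 to 20.1%) with 2, and their intervals overlapped. These shares are not matched on width. In the same width bins the mean distance to the nearest TEAD summit was 475 bp in members and 671 bp with 2 TEAD. Against regions with 1 the means were 470 and 1251 bp. More sites in a given width lie nearer to any point, so the rule bears on this order.

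**Figure D5:**
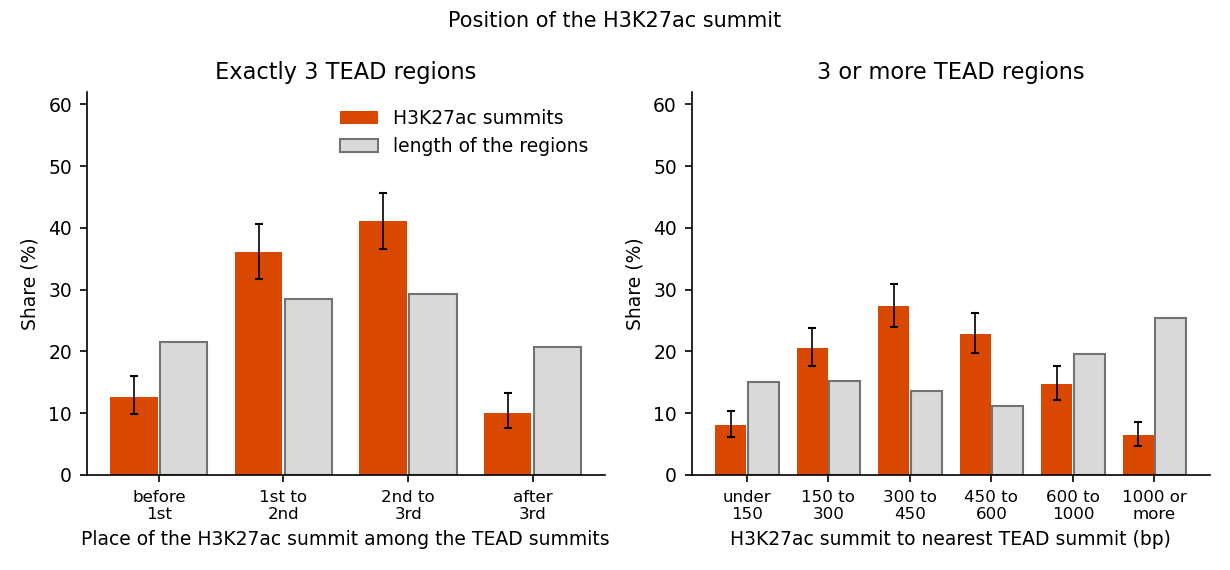
Share of H3K27ac summits (orange) and of the regions' length (grey; both percent, vertical axes) by place among the TEAD summits in the 465 regions with exactly 3 TEAD (left) and by distance to the nearest TEAD summit in bp in all 670 members (right). Summits exceed the length share between the TEAD summits and from 150 to 600 bp; error bars are exact 95% binomial intervals.

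At equal width and in the main setting, acetylation was higher in members than in regions with 0 or 2 TEAD sites by a small margin. Against regions with 1 the interval included 0. For 0 and for 1 TEAD, whether the interval included 0 depended on the setting. Intervals here are 95% binomial ones for the median of the members' single differences, moved to the mean, and cover the spread among members only. Mean log2 H3K27ac fold was 4.25 ± 0.54 (SD) in 639 members and 4.17 ± 0.52 (SD) in regions of the same width with 2 TEAD, a difference of 0.075 (0.022 to 0.119). Against regions with 1 TEAD the means were 4.24 and 4.19, a difference of 0.057 (-0.0051 to 0.112; 620 members). Against regions with none they were 4.16 and 3.93, a difference of 0.22 (0.15 to 0.27) over the 441 members that had at least 5 such regions in their width bin. The other 229 members, the wider ones, had no such counterpart. With TEAD regions of at least 5-fold only, the difference from regions with none was 0.076 (-0.0014 to 0.150), an interval that includes 0. With TEAD counted only where its summit lay inside, the difference from regions with 1 was 0.070 (0.0030 to 0.138).

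Recovered background moved with these differences in part. Its mean log2 was higher in members by 0.064 than in regions of the same width with no TEAD and by 0.068 than in those with 1. Against those with 2 the difference was -0.0044. Within bins of width and 3 equal classes of background together, the H3K27ac differences were 0.23, 0.074 (0.0099 to 0.130) and 0.078.

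TEAD sites in members were on average weaker than the lone TEAD site of a region of the same width. Mean log2 TEAD fold per region was 3.08 ± 0.55 (SD, 620 members) against 3.43 ± 1.04 (SD) in regions with 1 TEAD, a difference of -0.35 (-0.41 to -0.28). Against regions with 2 it was -0.16. The strongest site of a member averaged 20.3-fold against 14.4-fold for the lone site, and the weakest 5.24-fold. A strongest site chosen among several is higher by that choice, so neither extreme is a like-for-like comparison. Without matching on width the difference of the means was -0.063.

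Outside the regions, members had fewer other TEAD regions nearby than regions of the same width with 1 or none. TEAD regions that touch a region are left out of this count, so the overlap rule bears on it. Of the 2347 pairs of a member and a TEAD region, 116 had the TEAD summit outside the member and were left out. How much of the difference follows from this was not tested. Within 10 kb on both sides, members held a mean of 1.17 ± 1.23 (SD, 620 members) TEAD regions that did not touch them, against 1.38 ± 1.43 (SD) around regions with 1. Against regions with none the means were 1.07 and 1.34, and against regions with 2 they were 1.18 and 1.17. Other H3K27ac regions covered 21.3% of the flanks of members and 26.7% of those of regions with 1 TEAD. TEAD regions that did not touch were thus fewer beside members than beside regions with 1 or none. Their number was nearly equal beside regions with 2. No other TEAD region lay within 10 kb of 240 of the 670, and this share was not computed for other regions.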

How the data were processed

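Peak lists for H3K27ac and TEAD, 1 library each, were used; input chromatin has no list here. The build was hg19, per the submitters' processing notes, which also name MACS2, fastp and Bowtie2 (version 2.4.5). Parameters, threshold and control: not given in the sources used here. For each peak the authors deposited a fold enrichment at the summit over local background, −log10 p and −log10 q values, a whole-number score (not used) and the summit's distance from the peak start. These are the authors' own values and rank or describe peaks within a list.

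Reads k and background b at each summit were recovered as the whole-number k for which (k + 1)/(b + 1) gives the fold and a Poisson upper tail above k gives the p, within 0.002 of the −log10 p, for 100% of peaks in both lists. The median was 24 reads in both, the lowest 7. Counting intervals are exact 95% Poisson intervals on k with b held fixed; shares carry exact 95% binomial intervals. All cover counting error only, since reads carry no molecular identifiers, and regions are not replicates.

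Overlap needed 1 bp. Other regions were averaged in bins of 0.25 in log2 width with at least 5 others and weighted to the members. Named regions are the 10 members with the most TEAD regions (ties by H3K27ac fold), the 5 with the strongest TEAD, the 5 with the shortest span and the 5 most evenly spaced with 4 or more. Python 3.11.15, pandas 2.3.3 and scipy 1.17.1 were used, and the scripts were tested on simulated data. Members, rules and lists were chosen with earlier results of these data known. Gene names, start sites and motifs were not analysed here, as the tables at hand are of another build.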

Additional observations from a re-analysis of the deposited data

How the results depend on the processing

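Of 52 alternative values (45 planned, 7 added after seeing the data), 41 stayed inside the interval of the reported value, or within 1.5 times of the count. Of these, 2 could not move, as the distance of the H3K27ac summit from the centre in members uses no width bins. With TEAD regions of at least 5-fold, the members numbered 383 in place of 670, the median TEAD spacing was 1758 bp and the nearest TEAD summit lay 449 bp from the H3K27ac summit. The H3K27ac log2 difference from regions with no TEAD was then 0.076 (-0.0014 to 0.150). The TEAD log2 difference from regions with 1 was -0.21. With −log10 q of at least 5, spacing was 1639.5 bp and the H3K27ac difference from regions with no TEAD 0.15. Fewer sites are counted under both, which lengthens spacing. Without matching on width, the H3K27ac differences from regions with 0, 1 and 2 TEAD were 1.64, 1.11 and 0.42, and the TEAD difference was -0.063. No value changed sign. For the order of strength, each alternative gave 30.3 to 35% of regions with the strongest TEAD in the middle and 30.6 to 33.6% with the strongest nearest the H3K27ac summit. No paired analysis was possible because each antibody has 1 library. The lowest number of reads at a TEAD summit was 7, and the effect of depth on membership was not tested.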

Other observations

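Members were unevenly spread over chromosomes before width was taken into account. They made up 2.12% of the H3K27ac regions of chromosome 20 (31 of 1465; exact 95% binomial interval 1.44 to 2.99%), 1.84% on chromosome 7 (51 of 2775; 1.37 to 2.41%) and 1.81% on chromosome 18 (20 of 1107; 1.11 to 2.78%). The lowest shares were 0.339% on chromosome X (5 of 1473; 0.110 to 0.790%) and 0.353% on chromosome 13 (3 of 849; 0.0729 to 1.03%). With the membership of each width bin over all chromosomes, the widths found on chromosome 20 give 22.3 members, against 31 seen. The same number was 40.6 on chromosome 7 (51 seen), 11.9 on chromosome 18 (20 seen), 6.69 on chromosome X (5 seen), 4.83 on chromosome 13 (3 seen) and 33.4 on chromosome 17 (23 seen). It also differed from the number seen on chromosome 14 (22.9; 29 seen), chromosome 12 (23.3; 17 seen), chromosome 2 (56.8; 47 seen) and chromosome 10 (42.2; 50 seen). On some chromosomes it was close to the number seen, such as 70.7 on chromosome 1 (70 seen) and 38.3 on chromosome 9 (37 seen). Whether the departures exceed counting variation over all chromosomes was not tested.

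The recovered background differed between chromosomes as well. Its median at H3K27ac regions was 1.48 reads on chromosomes 13 and X and 3.53 on chromosomes 7 and 8. Members made up 1.01% of the regions of chromosome 8 (24 of 2377; 0.648 to 1.499%), an interval that overlaps that of chromosome 7. The part of background in these shares was not tested, and DNA copy number was not measured.

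Within 10 kb of another member lay 56 of the 670 members (8.36%; 6.38 to 10.7%). The share for other regions was not computed.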
